A study of Mus musculus with 40 samples.

Results

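The 9 genes described here encode 8 transcription factors of the mesenchymal transition (Snai1, Snai2, Twist1, Twist2, Zeb1, Zeb2, Prrx1 and Prrx2) and the intermediate filament protein vimentin (Vim). They were chosen by gene symbol and not by a cutoff on their values, though with earlier results of these data known. All 9 were listed in both tables, among 17646 genes in male hearts and 17223 in female hearts. Transcription was measured in tissue of the left ventricle, as the study describes it, under labels that say heart. It came from CM-Il11-Tg mice and controls, and the samples are called hearts below. CM-Il11-Tg mice are heterozygous for a tamoxifen-activated Cre under the cardiomyocyte promoter α-MHC (MCM) and for a mouse Il11 transgene in the Rosa26 locus. Control mice were littermates that carried MCM without the Rosa26-Il11 allele and received tamoxifen, uninduced mice were CM-Il11-Tg mice that received none, and induced mice were CM-Il11-Tg mice sampled 1, 3 or 6 weeks after tamoxifen (20 mg per kg on 5 days from 8 weeks of age). Every group therefore carried the MCM Cre, and no group of mice lacked it. The uninduced group alone received no tamoxifen, and the labels give no interval between tamoxifen and sampling for the controls. Groups held 4 hearts of each sex, except male controls and male 6-week hearts, which held 3.

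In a mesenchymal transition, epithelial or endothelial cells lose their junctions and take on the shape and matrix production of mesenchymal cells. Snail and Zeb proteins bind E-box sequences in the promoters of junction genes and repress them, Twist proteins are basic helix-loop-helix factors that act with E-protein partners, and the paired-related homeobox factors Prrx1 and Prrx2 mark mesenchyme in the embryo. In the adult heart the same factors are also transcribed in cells that are mesenchymal already, such as fibroblasts, and vimentin is made by fibroblasts, endothelial cells and leukocytes as well.

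Values are the authors' scaled counts (CPM, counts divided by the scaled size of the library), called scaled values below, and are compared within a sex only. The libraries held 16663513 to 65333832 reads on listed genes in males and 19147947 to 30929192 in females. Il11 itself stood at 0 to 0.166 in controls of both sexes, at 15.5 to 49.1 in uninduced hearts and at 328 to 819 in induced hearts, so each assigned library carried the Il11 level of its labelled group. A further 2 male libraries have labels that contradict each other and entered no comparison. Male 6-week replicate 4 stood farthest from its group, with a median absolute difference of 0.235 on the log2 scale. Female 1-week replicate 2 and female 6-week replicate 2 held transcripts of atrial muscle. Myl7, an atrial myosin light chain, stood at 52.3 and 346 in these, and at 0 to 0.529 in every other female library. Myl4, the other atrial light chain, stood at 67.0 and 383 in the same pair and at 0.962 to 3.01 elsewhere in females. Male libraries held Myl4 at 0.676 to 2.58, and Myl7 is not listed for males. Sln and Bmp10, also looked for as atrial genes, are not listed for either sex. The results for females are given with and without these atrial-bearing libraries wherever a call changed.

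Against control, Snai1, Prrx2 and Vim rose in both sexes at 1, 3 and 6 weeks, Twist1 and Zeb2 rose at every week in females and at some weeks in males, and Snai2, Twist2 and Prrx1 passed the test at no week in either sex. A gene was called at an adjusted p under 0.05 (limma, Benjamini-Hochberg over all genes tested, 16931 in males and 16956 in females, all 9 members among them in both). In males 4 of the 9 members were called higher and 1 lower at 1 week, beside 18.9% of all tested genes called higher and 14.6% called lower. At 3 weeks 4 members were higher and 0 lower, beside 13.2% and 8.1% of all genes, and at 6 weeks 4 were higher and 0 lower, beside 16.2% and 10.9%. Females had 5 members higher and 0 lower at each week, against a background of 15.3% higher and 13.1% lower at 1 week, 16.8% and 14.5% at 3 weeks, and 21.7% and 21.0% at 6 weeks. The median log2 fold change of the 9 members at 6 weeks was 0.48 in males and 1.03 in females, where the median over all tested genes was -0.01 and -0.02. These 3 comparisons of a sex share their control libraries and are not independent of each other. Prrx2 is among those higher at each week, and it met the filter for low values mainly through induced hearts. Its place in these counts is therefore not independent of its rise. Because these are whole-tissue samples, a higher level from more cells of a type cannot be told apart from more RNA per cell.

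**Figure D1:**
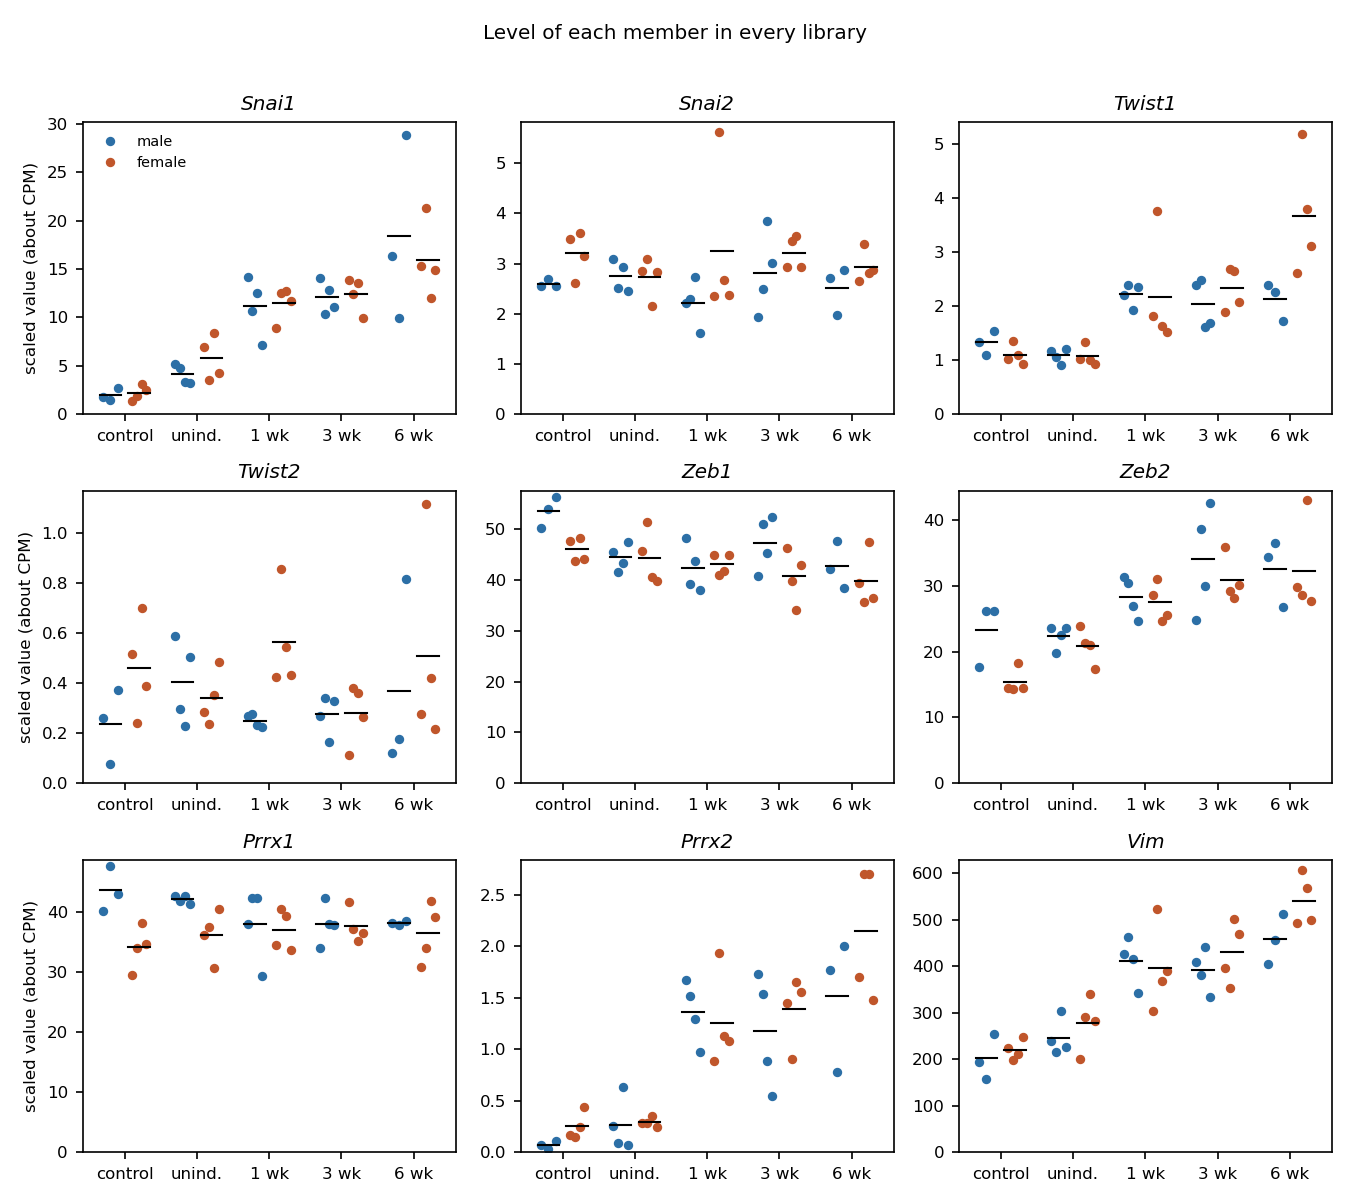
Scaled value (CPM, linear axis from 0) of each of the 9 genes in all 38 assigned libraries, males in blue and females in orange, with the group mean as a bar. Snai1, Prrx2 and Vim of induced hearts lie above every control library of their sex, while Snai2, Twist2 and Prrx1 overlap with control, except male Prrx1 at 6 weeks. The high female points of Twist1, Twist2 and Snai2 at 1 week are the atrial-bearing replicate 2.

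Snai1 (ENSMUSG00000042821, chromosome 2, 167380113 to 167384734, plus strand of GRCm39), which encodes the zinc-finger repressor Snail, had the highest log2 fold changes of the 9 on the log2(value + 0.5) scale at each week in both sexes. That order depends on the scale. Over the alternative fits the log2 fold change at 6 weeks reached 4.19 for Prrx2 and 3.17 for Snai1 in males, and 3.14 and 2.85 in females. Snai1 stood at 1.51, 1.80 and 2.77 in the male controls and at 7.19, 10.7, 12.6 and 14.1 in male hearts at 1 week. Male values were 10.4, 11.1, 12.9 and 14.1 at 3 weeks and 9.96, 16.3 and 28.8 at 6 weeks. No induced male heart overlapped with the controls, and the highest value belonged to replicate 4 at 6 weeks, the library that stood apart. The log2 fold change in males was 2.20 (SE 0.279, adjusted p = 7.72e-06), 2.34 (SE 0.279, adjusted p = 3.79e-06) and 2.80 (SE 0.298, adjusted p = 8.11e-07) at 1, 3 and 6 weeks, and 2.42 at 6 weeks without that replicate.

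Female Snai1 stood at 1.42, 1.94, 2.49 and 3.10 in controls, and at 8.96, 11.7, 12.5 and 12.8 at 1 week. It reached 9.99, 12.4, 13.6 and 13.8 at 3 weeks and 11.98, 14.95, 15.3 and 21.3 at 6 weeks, the last in the atrial-bearing replicate 2. Every induced female heart was above every control. The log2 fold changes were 2.16, 2.27 and 2.59 (SE 0.230 each), with adjusted p = 4.26e-07, 1.60e-07 and 1.74e-08. Leaving out both atrial-bearing libraries gave 2.11 at 1 week and 2.45 at 6 weeks.

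The uninduced hearts held Snai1 between these levels. Uninduced females stood at 3.57, 4.25, 6.95 and 8.42, all above the female controls and all below the induced females, with a log2 fold change of 1.17 against control (SE 0.230, adjusted p = 0.00539). Snai1 was the 1 member of 9 called in this comparison, beside 2.41% of all genes higher and 0.466% lower. The adjusted p ranged from 1.92e-05 to 0.093 over the alternatives, and in a fit of the control and uninduced libraries alone (adjusted p = 0.093) the call was lost. Uninduced males stood at 3.22, 3.33, 4.74 and 5.20, all above the male controls, but the log2 fold change of 0.88 (SE 0.279) did not pass (adjusted p = 0.221; exact permutation test, two-sided, p = 0.0286, the smallest this design can give). No member was called in uninduced males (limma), beside 0.561% of all genes higher and 0.0354% lower. Snai1 and Zeb1 had an unadjusted p under 0.05 there, and edgeR and DESeq2 called 0 members too.

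Snai2 (ENSMUSG00000022676, chromosome 16, 14523425 to 14527252, plus strand), which encodes the related repressor Slug, was called at no week in either sex. Male controls held 2.55, 2.56 and 2.69, and the male 6-week hearts 1.98, 2.72 and 2.87. Female controls held 2.61, 3.16, 3.49 and 3.60, and female 6-week hearts 2.66, 2.81, 2.87 and 3.39. The log2 differences from control at 6 weeks were -0.05 in males (95% interval -0.47 to 0.37) and -0.11 in females (95% interval -0.50 to 0.28), so a change of the size seen for Snai1 lies outside both intervals. A single Snai2 value, 5.62 in the atrial-bearing female 1-week replicate, exceeded every other library.

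The stretch of 250 bases before the start of Snai1 is shown because this gene had the highest log2 fold changes on that scale and because the stretch holds an E-box of the kind Snail and Zeb proteins bind. Sequences are RefSeq's for GRCm38.p6, the build of the table used, while the reads were counted on GRCm39. Of the 9 genes, 7 matched an entry that was searched here, and no stretch of Snai2 or Zeb1 was searched. Each stretch was searched on both strands for CACCTG (or CAGGTG), for CANNTG, the general E-box of which CACCTG is one form, and for TTCNNNGAA, the form bound by STAT proteins. Capitals mark matches. The Snai1 stretch is chr2:167537945-167538194, plus strand, and holds CACCTG 1 time and no TTCNNNGAA.
Snai1: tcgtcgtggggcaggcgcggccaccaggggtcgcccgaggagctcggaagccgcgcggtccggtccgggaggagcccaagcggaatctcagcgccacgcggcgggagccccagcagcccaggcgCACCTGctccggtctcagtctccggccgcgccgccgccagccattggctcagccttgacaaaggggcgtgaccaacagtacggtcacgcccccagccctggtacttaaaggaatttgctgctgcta
Of 32851 promoter stretches of this length, 17.2% held CACCTG, 66.2% CANNTG and 7.02% TTCNNNGAA. A match describes the letters only.

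Twist1 (ENSMUSG00000035799, chromosome 12, 34007645 to 34009828, plus strand), a basic helix-loop-helix factor of embryonic mesenchyme, was transcribed at a low level. Male controls held 1.10, 1.35 and 1.55, and males at 1 week held 1.93, 2.21, 2.36 and 2.40. At 3 weeks the male values were 1.61, 1.69, 2.39 and 2.49, and at 6 weeks 1.73, 2.26 and 2.40. All induced males lay above all male controls. The log2 fold change was 0.58 at 1 week (SE 0.166, adjusted p = 0.0116), 0.47 at 3 weeks (SE 0.166, adjusted p = 0.052) and 0.52 at 6 weeks (SE 0.178, adjusted p = 0.0354), so 3 weeks did not pass, although it did without 3-week replicate 3 or 4 (adjusted p = 0.0337 and 0.0407) and with a pseudocount of 2 (0.0474). The 6-week call was lost without control replicate 1 or 3 or without 6-week replicate 1 or 3 (adjusted p 0.0677 to 0.151) and in a fit of the control and 6-week libraries alone (adjusted p = 0.116), and the 1-week call without control replicate 3 (adjusted p = 0.0735).

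Female Twist1 stood at 0.942, 1.03, 1.10 and 1.35 in controls and at 1.52, 1.63, 1.81 and 3.76 at 1 week. The values were 1.90, 2.09, 2.66 and 2.698 at 3 weeks and 2.62, 3.11, 3.79 and 5.20 at 6 weeks. The groups did not overlap with control, and the highest value at both 1 and 6 weeks was that of the atrial-bearing library. The log2 fold changes were 0.67 (SE 0.210, adjusted p = 0.0204), 0.81 (SE 0.210, adjusted p = 0.00549) and 1.35 (SE 0.210, adjusted p = 3.40e-05). Without both atrial-bearing libraries the 1-week value was 0.43 and no longer passed (adjusted p = 0.0539), which left 4 members called at that week, and the 6-week value was 1.19 (adjusted p = 8.03e-06). The 1-week call was also lost without female control replicate 4 (adjusted p = 0.0561).

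Twist2 (ENSMUSG00000007805, chromosome 1, 91729176 to 91796542, plus strand), the close relative of Twist1 known from dermal mesenchyme, was near the limit of detection. Its libraries held 2 to 35 reads in males and 3 to 26 in females, or 0.0757 to 0.816 and 0.112 to 1.12 as scaled values. Both of the highest female values, 0.856 and 1.12, came from the atrial-bearing libraries. No comparison passed, and the 95% interval of the log2 difference from control at 6 weeks ran from -0.34 to 0.69 in males and from -0.46 to 0.48 in females.

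Zeb1 (ENSMUSG00000024238) and Zeb2 (ENSMUSG00000026872, chromosome 2, 44873644 to 45007464, minus strand) encode large zinc-finger and homeodomain repressors. Zeb2 rose in females from 14.3, 14.5, 14.5 and 18.3 in controls to 24.6, 25.6, 28.5 and 31.0 at 1 week. It then stood at 28.1, 29.1, 30.2 and 35.9 at 3 weeks and at 27.7, 28.6, 29.7 and 42.9 at 6 weeks, with no overlap with control. The log2 fold changes were 0.81, 0.98 and 1.03 (SE 0.133 each; adjusted p = 9.50e-05, 8.94e-06 and 3.69e-06). Uninduced females stood at 17.3, 21.0, 21.3 and 23.9, a log2 difference of 0.42 that did not pass (SE 0.133, adjusted p = 0.101), except without uninduced replicate 4 (0.51, adjusted p = 0.0375).

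Against control, male Zeb2 was called at 3 weeks alone. Male controls held 17.7, 26.1 and 26.2, and the 3-week hearts 24.7, 30.0, 38.6 and 42.5, so the groups overlapped although the log2 fold change of 0.52 passed (SE 0.174, adjusted p = 0.036). The exact permutation test, two-sided, gave p = 0.171 for this call. That call was lost without control replicate 1, which was the low control (adjusted p = 0.227), and without 3-week replicate 2 or 4 (adjusted p = 0.104 and 0.113), and in a fit of the control and 3-week libraries alone (adjusted p = 0.0722). At 1 week the males held 24.7, 26.9, 30.3 and 31.3, with a log2 difference of 0.29 (SE 0.174, adjusted p = 0.209). At 6 weeks 26.7, 34.4 and 36.5 lay just above the controls, with a log2 difference of 0.48 (SE 0.185, adjusted p = 0.0607), or 0.61 without replicate 4 (adjusted p = 0.0271).

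Zeb1 was the 1 member with a call in the lower direction. Male controls held 50.2, 53.9 and 56.3, and males at 1 week 38.0, 39.2, 43.8 and 48.2, with no overlap and a log2 fold change of -0.34 (SE 0.113, adjusted p = 0.0259). The exact permutation test, two-sided, gave p = 0.0571 for this call. The 3-week males held 40.7, 45.2, 50.9 and 52.3 (log2 difference -0.18, adjusted p = 0.285) and the 6-week males 38.4, 42.1 and 47.5 (log2 difference -0.33, adjusted p = 0.0501). That 6-week difference passed without replicate 3 (adjusted p = 0.0273), in DESeq2 (0.0314), with median-of-ratios scaling (0.0431), with a pseudocount of 2 (0.0488) and with a filter of 1 or above in 4 libraries (0.0476). Uninduced males, at 41.5, 43.4, 45.5 and 47.5, also lay below all 3 controls (log2 difference -0.26, SE 0.113, adjusted p = 0.413; exact permutation test, two-sided, p = 0.0286). The 1-week call was lost without control replicate 3 or 4 or without 1-week replicate 2 or 4 (adjusted p 0.0654 to 0.0958). In females, controls held 43.7, 44.1, 47.6 and 48.3 and 6-week hearts 35.6, 36.3, 39.4 and 47.5, a log2 difference of -0.22 (SE 0.106) that did not pass (adjusted p = 0.106), except without 6-week replicate 3 (-0.30, adjusted p = 0.0263).

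Antisense transcripts that overlap both genes are listed: Zeb1os1 ran from 0.579 to 1.32 and Zeb2os from 0.499 to 2.19 over all assigned libraries. The sources do not state whether counting used strand. The Zeb2 stretch is shown because, among the members' stretches searched here, only Zeb2 had a TTCNNNGAA match. No stretch of Zeb1 was searched. RefSeq gives Zeb2 several starts, and 2 of its stretches, which overlap, hold that match, at chr2:45113280-45113529 on the minus strand for the one printed.
Zeb2: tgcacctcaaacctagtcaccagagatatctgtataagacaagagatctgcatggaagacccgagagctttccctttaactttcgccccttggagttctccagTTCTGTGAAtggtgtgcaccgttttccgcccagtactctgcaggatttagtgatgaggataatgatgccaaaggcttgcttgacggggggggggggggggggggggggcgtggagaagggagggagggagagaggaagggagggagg

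Prrx2 (ENSMUSG00000039476, chromosome 2, 30724984 to 30774419, plus strand), a homeobox factor of embryonic limb, face and vessel mesenchyme, rose from a few reads per control library. Male controls held 0.0379, 0.075 and 0.114, which are 1 to 7 reads, and males at 1 week 0.974, 1.30, 1.52 and 1.67. At 3 weeks the male values were 0.552, 0.887, 1.53 and 1.74, and at 6 weeks 0.777, 1.77 and 2.01, from 15 to 86 reads per library in these 2 groups. All induced hearts lay above all controls. The ratio of summed scaled reads to control in males was 15.6 at 1 week (exact 95% counting interval 8.27 to 33.3), 13.4 at 3 weeks (7.06 to 28.6) and 18.4 at 6 weeks (9.80 to 39.1). These intervals cover counting error only.

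Female controls held Prrx2 at 0.145, 0.172, 0.250 and 0.443, or 3 to 8 reads. At 1 week the females held 0.889, 1.08, 1.13 and 1.93, at 3 weeks 0.912, 1.45, 1.56 and 1.65, and at 6 weeks 1.48, 1.70, 2.704 and 2.706. No induced female overlapped with control. The ratios were 5.18 (3.22 to 8.77), 5.74 (3.59 to 9.65) and 8.65 (5.47 to 14.4). On the log2(value + 0.5) scale, which understates the change of so low a gene, the fold changes were 1.68, 1.48 and 1.75 in males and 1.21, 1.33 and 1.80 in females, with adjusted p between 4.13e-07 and 0.000704. In females Prrx2 met the filter for low values (3 or more libraries at 0.5 or above) through induced hearts alone. In males an uninduced heart at 0.631 reached 0.5 as well, and every control lay below it. Uninduced males held 0.076, 0.0889, 0.258 and 0.631 and uninduced females 0.243, 0.285, 0.286 and 0.353, without a call in either sex. The ratio to control was 2.33 in uninduced males (counting interval 1.08 to 5.47) and 1.19 in uninduced females (0.635 to 2.26). The highest uninduced male lay above the lowest male 3-week heart, which held 0.552.

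Prrx1 (ENSMUSG00000026586, chromosome 1, 163041844 to 163142033, minus strand), the other paired-related factor and a marker of fibroblast lineages, was more abundant per length than Prrx2 and was called against control at no week. Female controls ran from 29.6 to 38.3 and the female 6-week hearts from 30.8 to 41.9. Male controls held 40.3, 43.1 and 47.8 and male 6-week hearts 37.9, 38.2 and 38.5, with a log2 difference of -0.19 (95% interval -0.45 to 0.07, adjusted p = 0.275). In females the difference at 6 weeks was 0.09 (95% interval -0.14 to 0.32, adjusted p = 0.527).

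The stretch before Prrx2 is printed beside those of Snai1 and Zeb2 because its gene rose from a few reads in both sexes. It lies at chr2:30845117-30845366, plus strand, and none of the 3 motifs is in it.
Prrx2: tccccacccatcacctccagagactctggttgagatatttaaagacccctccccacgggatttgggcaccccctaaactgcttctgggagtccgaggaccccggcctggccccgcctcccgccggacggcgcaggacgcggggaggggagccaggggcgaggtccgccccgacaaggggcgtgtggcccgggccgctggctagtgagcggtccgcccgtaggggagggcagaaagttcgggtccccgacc

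Vim (ENSMUSG00000026728, chromosome 2, 13578738 to 13587639, plus strand), the main intermediate filament of mesenchymal cells, was the most abundant member. Male controls stood at 159, 194 and 255, and the male 1-week hearts at 343, 416, 426 and 463. At 3 weeks the males held 334, 381, 409 and 441, and at 6 weeks 404, 457 and 513. No induced male overlapped with control. The log2 fold changes were 1.04 (SE 0.159, adjusted p = 5.90e-05), 0.97 (SE 0.159, adjusted p = 0.000151) and 1.2 (SE 0.170, adjusted p = 2.77e-05).

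Female Vim stood at 199, 211, 225 and 249 in controls and at 305, 370, 391 and 524 at 1 week, the last in the atrial-bearing replicate. It was 353, 396, 470 and 503 at 3 weeks and 493, 499, 568 and 606 at 6 weeks, again with no overlap with control. The log2 fold changes were 0.82, 0.95 and 1.29 (SE 0.161 each; adjusted p = 0.000591, 0.000116 and 2.12e-06), and 0.68 at 1 week without both atrial-bearing libraries (adjusted p = 0.00357). Uninduced hearts held 216, 227, 239 and 305 in males and 202, 283, 291 and 342 in females, with log2 differences of 0.30 and 0.32 that did not pass (adjusted p = 0.524 and 0.358). The stretch before Vim, at chr2:13574061-13574310 on the plus strand, is given as that of the transcript with the highest level, and it too holds none of the 3 motifs.
Vim: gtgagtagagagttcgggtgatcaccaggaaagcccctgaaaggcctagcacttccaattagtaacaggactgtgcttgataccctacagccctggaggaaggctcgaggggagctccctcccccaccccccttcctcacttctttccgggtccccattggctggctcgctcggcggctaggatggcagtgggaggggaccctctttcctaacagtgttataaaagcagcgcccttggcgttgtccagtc

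**Figure D2:**
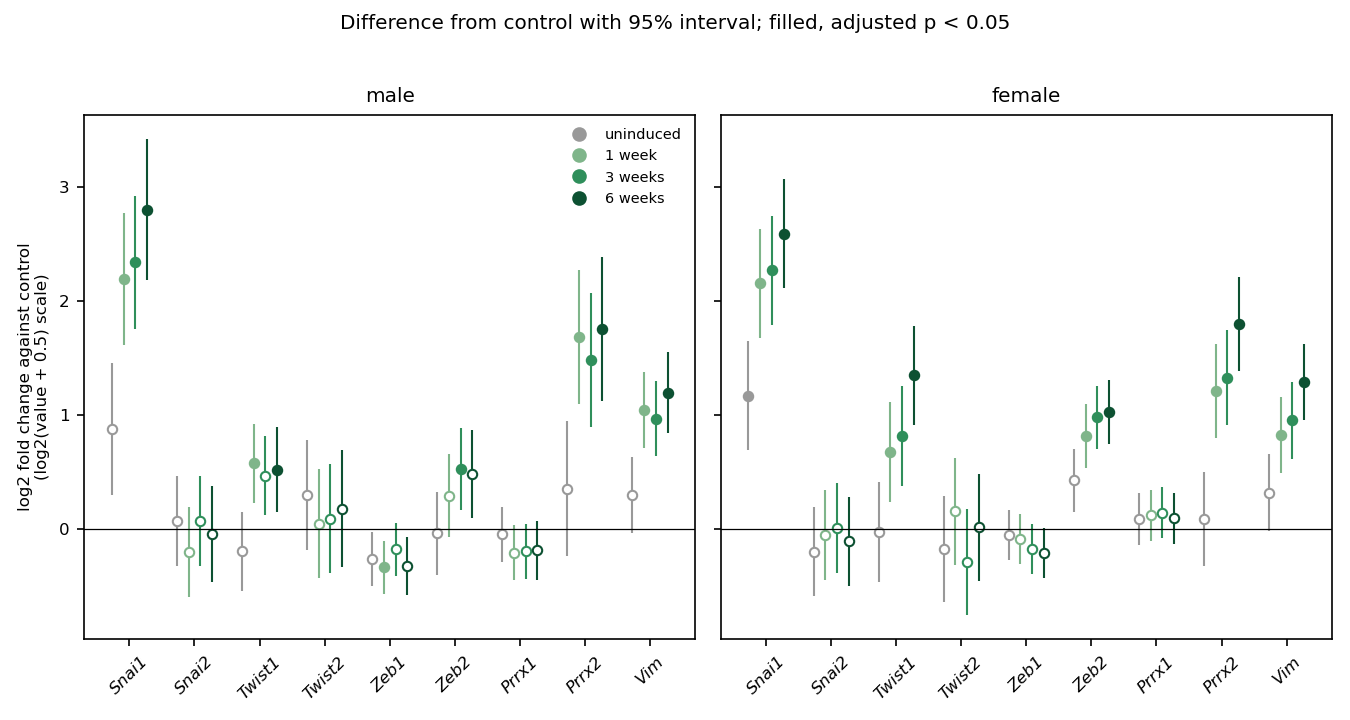
Log2 fold change against control on the log2(value + 0.5) scale (vertical axis) of each gene, for uninduced hearts and hearts at 1, 3 and 6 weeks, males left and females right; bars are 95% intervals from limma and filled points have an adjusted p under 0.05. The Snai1 points of induced hearts lie between 2.16 and 2.80, whereas Snai2, Twist2 and Prrx1 stay around 0.

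Within each family, then, 1 relative was called higher against control at some week and the other was not. Because that contrast alone does not show that the relatives differed, the log2 ratio of the pair was formed within each library and compared with control by an exact permutation test, two-sided, with Benjamini-Hochberg adjustment over the 24 tests. This comparison was added after the values were seen, so its p-values describe a separation already seen and are not independent of it. Prrx2 met the filter for low values mainly through induced hearts, so its ratio is not independent of its rise either. The relatives share 0 stretches of 60 bases, the length of a read, so reads of one could not match the other exactly.

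The ratio of Snai1 to Snai2 averaged -0.32 in male controls and -0.47 in female controls, and 2.53 and 2.23 at 6 weeks, a rise of 2.85 (SE 0.381) in males and 2.7 (SE 0.231) in females. The ratio of Prrx2 to Prrx1 rose by 1.94 (SE 0.318) and 1.71 (SE 0.221), and that of Zeb2 to Zeb1 by 0.81 (SE 0.156) and 1.24 (SE 0.087). For these 3 pairs every induced library of both sexes lay above every control library. The adjusted p from the exact permutation test was 0.0381 at each week in females and at 1 and 3 weeks in males. That value follows from an unadjusted p of 0.0286, the smallest these group sizes allow. At 6 weeks in males the exact permutation test of 3 libraries against 3 cannot go below p = 0.1, and the adjusted p was 0.109. The ratio of Twist1 to Twist2 rose by 1.11 at 3 weeks and 1.34 at 6 weeks in females (adjusted p = 0.0381 each, exact permutation test) and by 0.53 at 1 week in males (adjusted p = 0.0381, exact permutation test). It did not pass at 1 week in females (0.52, adjusted p = 0.119), nor in males at 3 weeks (0.38, adjusted p = 0.108) or 6 weeks (0.34, adjusted p = 0.4), again by the exact permutation test. Without the atrial-bearing libraries the female ratios of Snai1, Zeb2 and Prrx2 to their relatives still lay above every control at 1 and 6 weeks (exact permutation p = 0.0286 in each).

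**Figure D3:**
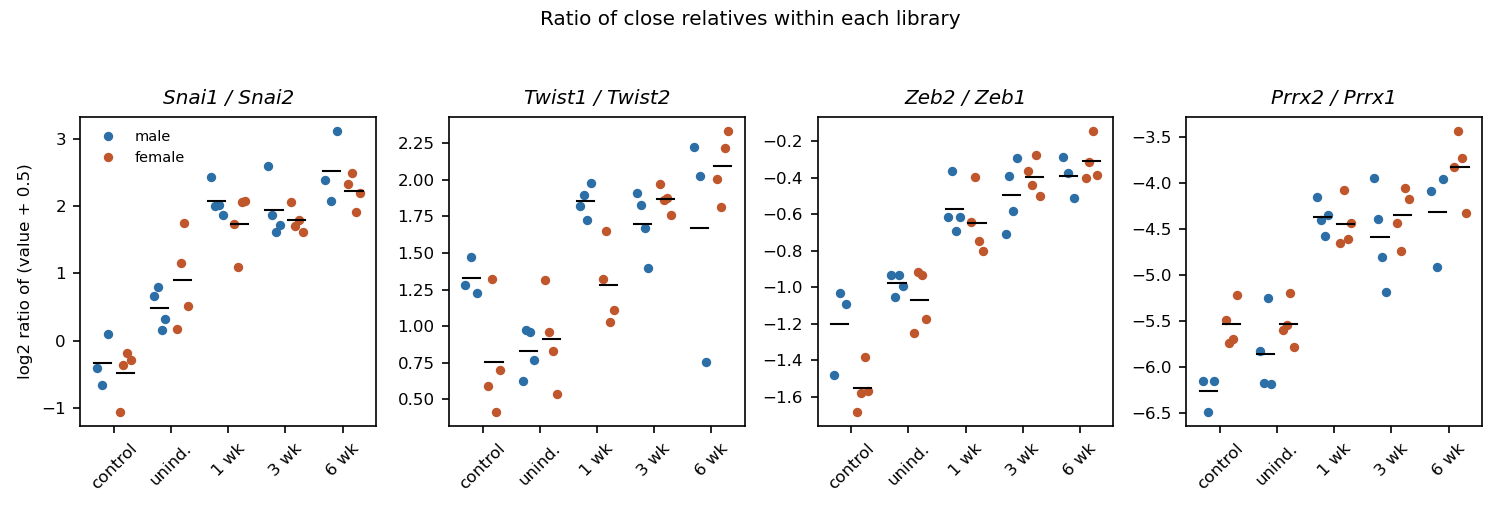
Log2 ratio of (value + 0.5) between close relatives within each library (vertical axis) by group, males in blue and females in orange, with the group mean as a bar. For Snai1 to Snai2, Zeb2 to Zeb1 and Prrx2 to Prrx1 every library at 1, 3 and 6 weeks lies above every control of its sex.

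To place the genes beside each other, values were divided by the summed exon length of each gene in kilobases, over the exons of all its annotated transcripts. In male controls Vim led at 42.6 ± 10.3 per kb (SD, n = 3), followed by Zeb1 at 3.92 ± 0.226 and Prrx1 at 2.64 ± 0.229. Snai1 (1.25 ± 0.405), Snai2 (1.12 ± 0.034), Zeb2 (1.03 ± 0.216) and Twist1 (0.805 ± 0.136) came next, and their neighbours in this order overlap in their libraries. Twist2 (0.0426 ± 0.0271) and Prrx2 (0.0148 ± 0.00744) were lowest and overlap with each other. In all induced groups Snai1 was the most abundant of the 8 factors per length, with every library above the highest for Zeb1. At 6 weeks it stood at 11.3 ± 5.91 per kb in males (n = 3) against 3.13 ± 0.337 for Zeb1, and at 9.79 ± 2.41 in females (n = 4) against 2.91 ± 0.398. Undivided, Zeb1 stood above Snai1 at 6 weeks, at a mean of 42.7 against 18.4 in males and 39.7 against 15.9 in females. The lengths used were 1623 bases for Snai1 and 13635 for Zeb1, so the order depends on them. Which transcripts were present was not measured.

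Against the uninduced mice, which carry the same alleles as the induced ones, Snai1, Prrx2, Vim and Twist1 were called higher in both sexes at all 3 weeks, and Zeb2 at 3 and 6 weeks. In males 4, 5 and 5 members were called at 1, 3 and 6 weeks, all higher, where 18.8%, 16.1% and 20.4% of all genes were called in either direction. In females the counts were also 4, 5 and 5, beside 12.6%, 16.7% and 22.8%. Prrx2, which met the filter for low values mainly through induced hearts, is in each count. For Snai1 the log2 fold change over uninduced hearts was 1.32, 1.46 and 1.93 in males and 0.99, 1.10 and 1.42 in females (adjusted p between 5.42e-05 and 0.00607). For Twist1 it was 0.77, 0.66 and 0.72 in males and 0.70, 0.84 and 1.38 in females (adjusted p between 5.31e-05 and 0.0315). Vim in females at 1 week, 0.50 higher than in uninduced hearts (SE 0.161, adjusted p = 0.0434), and Twist1 in the same comparison lost their calls without both atrial-bearing libraries (adjusted p = 0.167 and 0.0733), which left 2 members called. The Vim call was also lost without uninduced replicate 1, 2 or 4 or 1-week replicate 3 or 4 (adjusted p 0.062 to 0.175) and in a fit of those 2 groups alone (adjusted p = 0.161). That Twist1 call was also lost without uninduced replicate 2 or 4 (adjusted p = 0.0714 and 0.0722), with a pseudocount of 2 (0.055) and in a fit of the 2 groups alone (0.113). Female Zeb2 at 1 week did not pass (adjusted p = 0.0604), although it did without uninduced replicate 2 (0.0494) and in DESeq2 (0.0465). Male Zeb2 at 1 week did not pass either (adjusted p = 0.163), although it did in a fit of the 2 groups alone (0.0381). The male Zeb2 calls at 3 and 6 weeks (log2 fold change 0.56 and 0.52, adjusted p = 0.0202 and 0.038) were lost in some fits with 1 library left out. Over all alternatives the log2 fold change ran from 0.447 to 0.704 at 3 weeks and from 0.435 to 0.655 at 6 weeks. At 3 weeks the call was lost without uninduced replicate 2 or 3-week replicate 2 or 4 (adjusted p 0.0708 to 0.079), and at 6 weeks without any 1 of the 4 uninduced replicates or without 6-week replicate 1 or 3 (adjusted p 0.0515 to 0.121).

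Between the weeks no member was called in either sex (limma). Over all genes 0.0177%, 0.165% and 0.0% were called in males between 3 and 1, 6 and 1, and 6 and 3 weeks, and 0.218%, 1.03% and 0.0% in females. At an unadjusted p under 0.05 these were 1 member in males, Snai1 between 6 and 1 weeks, and 3 members in females, Prrx2, Twist1 and Vim, both between 6 and 1 and between 6 and 3 weeks. EdgeR and DESeq2 called 0 members in each of the 6 comparisons. The female 6-week level was higher than at 1 week by 0.59 (SE 0.199) for Prrx2, 0.68 (SE 0.210) for Twist1 and 0.47 (SE 0.161) for Vim on the log2 scale, with adjusted p = 0.199, 0.152 and 0.208. Leaving out female 1-week replicate 2, the atrial-bearing library of that week, made all 3 pass, and leaving out both atrial-bearing libraries made Twist1 alone pass (0.76, SE 0.165, adjusted p = 0.0278).

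Genes that act with or around these factors were counted at 6 weeks against control, where the share of all tested genes called higher was 16.2% in males and 21.7% in females, and the share called lower 10.9% and 21.0%. Of 21 mesenchymal and matrix genes usually raised in the transition, 13 were higher and 0 lower in males and 15 higher and 0 lower in females, with median log2 fold changes of 1.11 and 1.59 beside -0.01 and -0.02 over all genes. The same list had 14 higher in males and 15 in females at 1 week, beside 18.9% and 15.3% of all tested genes. At 3 weeks it had 14 higher in each sex, beside 13.2% in males and 16.8% in females. Col3a1, the fibrillar collagen of young scar, went from 249 ± 116 to 3137 ± 734 in males and from 271 ± 38.6 to 4663 ± 1195 in females, a log2 fold change of 3.72 (adjusted p = 6.23e-09) and 4.08 (adjusted p = 4.12e-12). Fn1, fibronectin, rose by 3.53 and 4.21 on the log2 scale (adjusted p = 8.09e-08 and 1.77e-10).

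Of 14 epithelial junction genes usually lowered in the transition, 5 in males and 6 in females were abundant enough to test. Cdh1 (E-cadherin, the classical target of Snail), Epcam, Ocln, Cldn4, Cldn7, Crb3 and Esrp1 are not listed in either table, nor are Cldn1 and Cldn3 for males. Males had 2 higher and 2 lower and females 1 higher and 1 lower at 6 weeks, with medians of 0.04 and 0.13. Tjp1, a tight junction scaffold that endothelial cells and cardiomyocytes also make, was called lower in both sexes, from 110 ± 18.2 to 50.1 ± 4.21 in males (log2 fold change -1.11, adjusted p = 6.63e-05) and from 70.0 ± 8.06 to 42.4 ± 8.85 in females (-0.73, adjusted p = 0.000499). Of 12 endothelial genes lowered in the transition, 1 was higher and 5 lower in males and 1 higher and 7 lower in females (median -0.43 and -0.37). Kdr, the main VEGF receptor, fell by 1.19 in males (adjusted p = 0.000915) and by 0.80 in females (adjusted p = 0.00175) on the log2 scale, and Tie1, an endothelial receptor kinase, fell by 0.51 and 0.81 (adjusted p = 0.0155 and 3.45e-08). Vwf, the clotting factor carrier made by endothelium, rose by 1.52 and 0.64 (adjusted p = 1.43e-05 and 0.00926).

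Among partners, 4 of 10 tested genes for E-proteins, other basic helix-loop-helix factors and Id proteins passed upward and 1 downward in males, and 2 and 0 in females, with medians of 0.33 and 0.14. Hand1 is not listed. Id2 and Id4, which encode inhibitors that sequester E-proteins, rose in both sexes, by 1.48 and 0.62 in males (adjusted p = 4.87e-05 and 0.0434) and by 1.71 and 1.43 in females (adjusted p = 2.20e-08 and 1.34e-05) on the log2 scale. Among other factors tied to the transition, males had 6 of 14 called higher with 1 lower, and females 5 of 15 higher with 2 lower (median 0.55 and 0.20), while Gsc, Klf8, Ovol1 and Ovol2 are not listed. Runx1, best known from blood formation, rose from 2.00 ± 0.597 to 12.6 ± 1.89 in males and from 1.17 ± 0.427 to 16.2 ± 4.53 in females (log2 fold change 2.40 and 3.32, adjusted p = 1.26e-07 and 3.77e-10). Runx2, a factor of bone formation, rose by 1.00 and 1.01 (adjusted p = 0.00226 and 0.000739).

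Among the corepressors through which Snail and Zeb act, in males 1 of 13 was higher and 3 lower, and in females 3 were higher and 0 lower, with median log2 fold changes of -0.22 and 0.02. Ehmt2, a histone H3 methyltransferase, was called higher in both sexes, by 0.35 and 0.23 (adjusted p = 0.0146 and 0.0205). Of 10 tested genes for the turnover of Snail and Twist proteins, 0 were higher and 5 lower in males and 4 higher and 2 lower in females (median -0.13 and 0.15). Fbxw7, a ubiquitin ligase subunit, fell by 0.84 and 0.66 (adjusted p = 5.63e-05 and 0.00188), and Csnk2a1, a casein kinase 2 subunit, by 0.42 and 0.26 (adjusted p = 0.00229 and 0.00543). Dub3 is not listed under that name. Of 13 intermediate filament and linker genes besides Vim, 3 were higher and 2 lower in males and 8 higher and 0 lower in females (median 0.25 and 0.65). Krt18, a keratin of simple epithelia, rose by 1.24 and 1.96 (adjusted p = 0.0237 and 0.00489), and Gfap, the filament of glia, by 0.88 and 1.26 (adjusted p = 0.0033 and 0.000496), both from control means under 0.4.

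Markers of the cell types in the heart moved in the same samples. The summed level of 10 macrophage markers was 225 to 371 in male controls and 883 to 1291 at 6 weeks, and 205 to 260 and 1078 to 1235 in females, with 9 and 10 of the 10 called higher. Macrophage markers in uninduced hearts summed to 321 to 474 in males and 378 to 507 in females, or 1.44 and 1.87 times control on average. The 10 fibroblast markers summed to 1.71 times control in males and 1.83 times in females at 6 weeks, with 6 higher in each sex and 1 and 2 lower. Most of the rise of that sum was Col1a1, whose mean went from 121 to 938 in males and from 147 to 1450 in females. Col1a1 rose and Gsn, gelsolin, fell within that list (log2 fold change 2.99 and -1.21 in males, 3.25 and -1.52 in females; adjusted p at most 0.000237). In the atrial-bearing female libraries the fibroblast sum was 4259 at 1 week, where the other 3 held 2373 to 2934, and 3992 at 6 weeks, within the 2854 to 4560 of that group.

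The sums of the other marker lists at 6 weeks were these. Endothelial markers summed to 0.731 and 0.691 times control in males and females, with 4 and 7 of 10 called lower and 0 higher. Mesothelial markers, which belong to the epithelial covering of the heart, summed to 6.62 to 32.0 in male 6-week hearts beside 6.86 to 8.22 in controls, with 0 of 6 called, and to 16.6 to 94.9 beside 5.76 to 11.2 in females, with 6 of 7 called higher. Lymphocyte markers summed to 3.74 and 3.68 times control, pericyte and smooth muscle markers to 0.625 and 0.733 times, and cardiomyocyte markers to 0.693 and 0.757 times. Schwann cell markers summed to 1.09 and 1.51 times control. Neutrophil markers summed to 1.82 and 1.83 times control, but most of that sum at 6 weeks was Csf3r. The mean of Csf3r went from 1.469 to 4.476 in males and from 1.225 to 3.841 in females. The ratio therefore does not show a rise of the other listed neutrophil genes. The defining neutrophil genes Retnlg, Ngp, Ltf and Camp are not listed. The part of these cell types in the levels of the 9 genes was not tested.

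**Figure D4:**
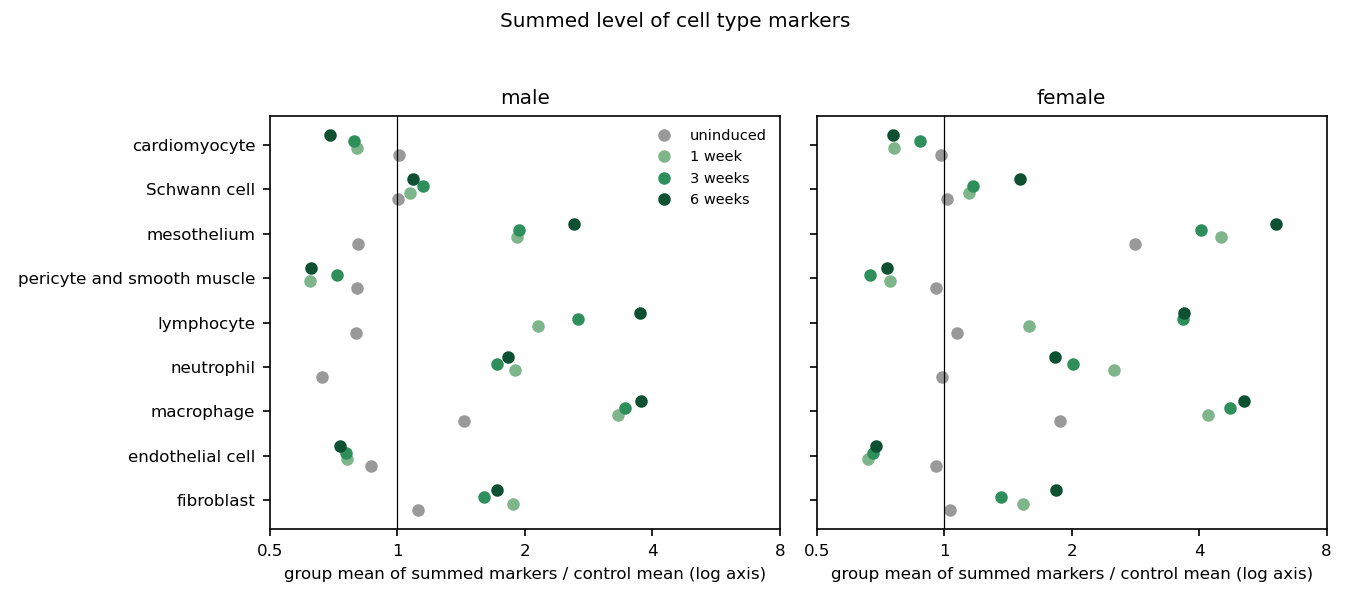
Mean of the summed scaled values of each cell type's markers in a group, divided by the control mean of the same sex (horizontal log axis), males left and females right; the line marks a ratio of 1. Macrophage sums lie farthest right among the abundant cell types (3.77 and 5.10 at 6 weeks), and endothelial, cardiomyocyte and pericyte sums lie left of the line in induced hearts.

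For each of the 9 genes, the 3 genes with the most similar pattern were found among 16627 genes tested in both sexes, by the root mean square difference of log2 values over 38 libraries, centred within each table. For Snai1, with a root mean square of its own of 1.02, these were Sting1 (0.282), Serping1 (0.291) and Bcl3 (0.294). For Vim (own value 0.497) they were Anxa2 (0.139), Tmed3 (0.159) and Arhgdib (0.166). For Prrx2 (0.771) they were Cxcl16 (0.237), Igfbp7 (0.24) and Mmp23 (0.244), and for Twist1 (0.49) Fam114a1 (0.234), Sntg2 (0.252) and Npc2 (0.255). Zeb2 (0.376) was closest to Lima1 (0.166), Iqgap1 (0.188) and Rab8b (0.188), and Zeb1 (0.156) to Trim44 (0.102), Cul1 (0.106) and Appbp2 (0.11). For Snai2, Twist2 and Prrx1 (0.241, 0.302 and 0.144) the distances to their nearest genes, from 0.121 to 0.243, were not far below their own values. Their nearest genes were Tmem33, Ythdf1 and Hacd2 for Snai2, Sf3b4, Gorasp2 and Tmem185a for Twist2, and Steep1, Vps35 and Mapk9 for Prrx1. The same limit holds in part for Zeb1, and Twist2 was near the limit of detection.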

How the data were processed

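PolyA RNA was sequenced from 40 hearts, 1 library per mouse, as separate samples per the labels. The authors aligned reads with STAR (v2.7.10a) to GRCm39, counted them on Ensembl release 106 genes with featureCounts (Rsubread v2.10.4), and used edgeR (v3.38.1). The deposited signal values, 1 table per sex, are CPM on a scaled library size. Divided by 1 step per library, 100% came within 0.001 of a whole read, so reads were recovered. Genes with few reads had been removed by the authors.

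Here limma 3.58.1 (R 4.3.3) with a mean-variance trend was fitted to log2(value + 0.5), with the 5 groups of a sex in 1 fit, keeping genes at 0.5 or above in 3 or more libraries, with Benjamini-Hochberg adjustment. Single values were also compared by exact permutation tests, which cannot go below p = 0.1 for 3 libraries against 3 or 0.0286 otherwise. The edgeR 4.0.16 and DESeq2 1.42.0 tests on recovered reads, other pseudocounts, filters and scaling, and leaving out libraries were alternatives. The fit was tested on simulated data. Promoters came from RefSeq (GRCm38.p6). Named were the members, Il11 and the 3 most similar genes per member. Per list, up to 2 genes with the largest rise and 2 with the largest fall at 6 weeks were named. These came from those called in the same direction in both sexes, and genes not listed were named too. Myl4, Myl7, Sln and Bmp10 were chosen after the data were seen. The members and lists were chosen with earlier results of these data known. A difference between the sexes was not tested.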

Additional observations from a re-analysis of the deposited data

Results flagged for a closer look

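Of 72 member groups of 4 libraries, 3 held a library whose gap to the nearest other, as a share of the group's range on the log2 scale, passed Dixon's critical value of 0.829; chance gives about 1 in 20 such groups. Snai2 stood at 5.62 in female 1-week replicate 2, where the other 3 libraries held 2.35 to 2.68, and this library carried the atrial transcripts Myl7 and Myl4. Zeb2 stood at 18.3 in female control replicate 3, the highest of its group, and at 42.9 in female 6-week replicate 3. Those groups do not overlap with each other.

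A male library outside all comparisons, titled as a control and described as 6 weeks after tamoxifen, held Snai1 at 14.7, Twist1 at 1.85, Prrx2 at 1.23 and Vim at 393. The highest male control held 2.77, 1.55, 0.114 and 255 of these. The library was given no group.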

How the results depend on the processing

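In settings other than leaving out 1 library, 1639 of 1660 member values stayed on their side of the threshold, 13 lost a call, 8 gained one and 0 called values changed sign; without 1 library at a time the numbers were 1326 of 1368, 32, 10 and 0. Among the values that stayed, 16 and 76 changed sign, all of them uncalled in both fits. The member count changed by over 1.5 times in these cases. With only the groups compared in the fit, female uninduced against control gave 0 members (1 in the full fit) and female 1 week against uninduced gave 2 (4 in the full fit). With both libraries that hold atrial transcripts left out, female 1 week against uninduced gave 2 and female 6 weeks against 1 week gave 1. With 1 library left out, the counts ran from 3 to 5 for male 1 week against control, 1 to 2 for female uninduced against control, 2 to 4 for female 1 week against uninduced and 0 to 3 for female 6 weeks against 1 week. The causes were not tested. Female 1 week against uninduced fell to 2 without uninduced replicate 4 or 1-week replicate 2.

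Replicate numbers do not pair the libraries: residuals of same-numbered libraries correlated by 0.0132 on average in males (4 of 33 pairs over 0.1) and 0.0255 in females (12 of 40). With the replicate number as a block, 4 members in place of 5 were called in males at 1 week (without Zeb1, adjusted p = 0.054) and 3 in place of 4 at 3 weeks against control (without Zeb2, 0.0681), 4 in place of 5 in males at 6 weeks against uninduced (without Zeb2, 0.0535), and 3 in place of 4 in females at 1 week against uninduced (without Vim, 0.0504); the other member counts were equal. Low read numbers limit what can be said of Twist2, with 2 to 35 reads per library.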

Other observations

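The other male library with contradicting labels, titled as 6 weeks after tamoxifen and described as a control, held Snai1 at 2.35, Vim at 229, Twist1 at 1.19 and Prrx2 at 0.0398. Its values of these 4 genes, and of Prrx1 at 40.4, lay inside the range of the 3 male controls. Snai2 at 2.75 and Twist2 at 0.478 lay above that range, where the highest controls held 2.69 and 0.374. Zeb2 at 14.7 and Zeb1 at 48.2 lay below it, where the lowest controls held 17.7 and 50.2. The library titled as a control held Zeb2 at 32.3 and Zeb1 at 47.7.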
